A study of Mus musculus with 10 samples.

Results

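The genes described here are those of the unfolded protein response and of protein folding in the endoplasmic reticulum (ER). They were listed by symbol for their known roles, as 35 named genes that encode the stress sensors, the transcription factors, the chaperones and oxidoreductases, the machinery of ER-associated degradation, the targets of the PERK and ATF4 branch and the alarmin Hmgb1. The platform annotation named a probe set for 33 of them, among 19505 named genes on the array, and Pdia4 and Manf were not analysed here. They were measured in B16OVA tumors, which grow from 1 cell line, a B16 melanoma made to express ovalbumin, implanted under the skin of B6 mice. Per the study's methods the mice were female and 8 to 10 weeks old. The BO-112 group (5 mice) received intratumoral BO-112 at 2.5 mg/kg, a nanoparticle of poly I:C (a synthetic double-stranded RNA) and its carrier polyethylenimine, and the Vehicle group (5 mice) received the same volume of 5% glucose. Total RNA of the whole tumor was taken 48 h after 2 injections and hybridized to Clariom S Mouse arrays, 1 per mouse. No group received poly I:C or polyethylenimine alone on these arrays, so the parts that the RNA and its carrier have in a difference cannot be told apart.

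Proteins that enter the ER fold there with the help of the Hsp70 chaperone BiP, encoded by Hspa5, its co-chaperones, the lectins calnexin and calreticulin and the protein disulfide isomerases. When unfolded proteins accumulate, the membrane sensors IRE1 (Ern1), PERK (Eif2ak3) and ATF6 start the unfolded protein response. IRE1 splices the Xbp1 mRNA into a form that encodes an active transcription factor, ATF6 is cleaved in the Golgi into another, and PERK phosphorylates eIF2 alpha, which slows general translation and favours that of ATF4, a factor that drives amino acid synthesis genes and, under lasting stress, Ddit3 (CHOP). Double-stranded RNA reaches the same eIF2 alpha through a separate kinase, PKR (Eif2ak2). ER stress also has a place in immunogenic cell death, in which calreticulin is exposed at the surface of dying cells and HMGB1 is released. The arrays measured mRNA, so neither Xbp1 splicing, nor eIF2 alpha phosphorylation, nor the site of calreticulin was seen.

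All values are log2 RMA expression values (RMA being the normalization the authors applied), and each log2 fold change is BO-112 minus Vehicle with its standard error (SE) from limma, with Benjamini-Hochberg adjusted p-values over 21792 tested probe sets. A gene is written as higher or lower, or as having risen or fallen, at an adjusted p under 0.05. Of the 33 genes, 30 exceeded the 75th percentile of the negative control probe sets on all 10 arrays. The array contrast is how often a positive control probe set outshines a negative control one, over all such pairs on an array. BO-112 mice 2 (0.845) and 5 (0.855) had the least of it, and it averaged 0.864 ± 0.0144 in BO-112 and 0.882 ± 0.00933 in Vehicle arrays (SD, n = 5 each, exact permutation p = 0.0794, two-sided). The 10 melanocyte lineage markers (Pmel, Tyr, Dct and others) exceeded the negative control level on every array. Their mean log2 value was 11.70, 11.55, 11.86, 12.05 and 10.72 in BO-112 mice 1 to 5, against 11.91 to 12.12 in the Vehicle mice, and 1 of the 10, Oca2, fell. The log2 fold change was negative in 8 of the 10, with a median of -0.37, and 4 were lower at an unadjusted limma p under 0.05. Summed on the linear scale these markers ran between 27798 and 58744 in BO-112 and between 53122 and 60168 in Vehicle tumors. In whole tumors, fewer cells of a type and less RNA per cell cannot be told apart. Of 9 plasma and B cell markers, whose cells carry a large ER, 8 exceeded the negative control level on no array.

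Promoters of some of these genes hold known binding elements of the response. Stretches that hold most of them are shown here because the genes are grouped by them further on. Windows of 250 bases before to 50 bases after the annotated start (RefSeq, GRCm38.p6) were at hand for 30 of the 35 genes, and those of Hyou1, Derl1, Ppp1r15b, Atf6 and Manf were not analysed here. Both strands were searched for the ER stress response element ERSE (CCAAT and CCACG with 9 free bases between them), for ERSE-II (ATTGG and CCACG with 1 free base between them), for the unfolded protein response element UPRE (TGACGTGG) and for the C/EBP-ATF response element CARE (TGATG and AAN with 1 free base between them), and 0 of the matches overlapped another. ERSE is bound by ATF6 together with NF-Y, and CARE by ATF4 and its partners. ERSE stood in 9 of the 30 windows, against 0.137% of 27025 genes with a window, and ERSE-II in 2 (Herpud1 and Dnajb11), against 0.0444%. UPRE stood in 0 of the 30, against 0.714%, and CARE in 4 (Asns, Chac1, Herpud1 and Trib3), against 4.5%. Each match is a match of letters and does not show that a factor binds there. Only exact matches inside these windows were sought, so a gene without one can still hold a variant or a more distant element. Each sequence reads 5′ to 3′ on the strand of its gene, with the element in capitals, in the forward form for Dnajc3, Canx, Pdia6, Hspa5, Syvn1, Hsp90b1 and Herpud1 and in the reverse form for Calr and Creld2. Hsp90b1 holds another ERSE in the reverse form, 107 to 89 bases before its start, nearer than the one shown. Also not shown is the ERSE of Derl3, 156 to 138 bases before its start. The ERSE-II of Dnajb11 and the CARE of Trib3 lie after the annotated start and are not shown.
Dnajc3, chr14:118937807-118937865, plus strand: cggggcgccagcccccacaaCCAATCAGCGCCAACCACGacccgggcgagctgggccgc
Canx, chr11:50325780-50325838, minus strand: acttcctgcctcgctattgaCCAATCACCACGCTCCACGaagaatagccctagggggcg
Pdia6, chr12:17266471-17266529, plus strand: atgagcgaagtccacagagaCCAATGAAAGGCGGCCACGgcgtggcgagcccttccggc
Hspa5, chr2:34772005-34772063, plus strand: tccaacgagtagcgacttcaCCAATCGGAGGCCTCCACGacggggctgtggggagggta
Syvn1, chr19:6046512-6046570, plus strand: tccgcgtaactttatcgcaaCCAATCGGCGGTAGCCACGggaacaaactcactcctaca
Hsp90b1, chr10:86705618-86705676, minus strand: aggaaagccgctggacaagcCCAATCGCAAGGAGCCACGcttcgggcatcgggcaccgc
Calr, chr8:84847055-84847113, minus strand: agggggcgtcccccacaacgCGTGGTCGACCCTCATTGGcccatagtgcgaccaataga
Creld2, chr15:88819500-88819558, plus strand: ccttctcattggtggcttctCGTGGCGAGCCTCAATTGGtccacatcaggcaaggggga
Herpud1, chr8:94386357-94386407, plus strand: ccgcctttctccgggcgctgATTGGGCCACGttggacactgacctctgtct

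The CARE of Asns reads in the forward form, and those of Chac1 and Herpud1 in the reverse form. Asns encodes asparagine synthetase and is a classic ATF4 target, and Chac1 encodes an enzyme that degrades glutathione. The CARE of Herpud1 lies in the same window as its ERSE-II.
Asns, chr6:7693210-7693252, minus strand: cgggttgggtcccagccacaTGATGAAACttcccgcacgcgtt
Chac1, chr2:119351028-119351076, plus strand: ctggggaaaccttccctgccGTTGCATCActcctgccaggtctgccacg
Herpud1, chr8:94386296-94386344, plus strand: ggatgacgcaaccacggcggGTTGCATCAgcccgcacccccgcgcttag

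Across the 33 genes, 6 were lower in BO-112 than in Vehicle tumors, namely Dnajc3, Hyou1, Dnajb9, Herpud1, Sdf2l1 and Canx, and 0 were higher. The same test called 2.79% of all tested probe sets lower and 2.43% higher, 5.22% in all. At an unadjusted p under 0.05, 20 were lower and 1, Ddit3, was higher, against 14.1% and 10.9% of all probe sets, and at the study's own limit, a B-statistic above 0, 2 were lower (Dnajc3 and Hyou1) and 0 higher, against 0.954% and 1.23%. The BO-112 and Vehicle values did not overlap in 11 genes, all lower in BO-112, against 5.3% of all probe sets lower and 3.39% higher. The log2 fold change was negative in 29 of the 33, with a median of -0.32, against 47.7% and a median of 0.01 over all probe sets. Among probe sets with a mean above 6, the brightness at which 32 of the 33 lie, 61.3% were negative, the median was -0.10, and 6.49% were lower and 4.61% higher.

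**Figure D1:**
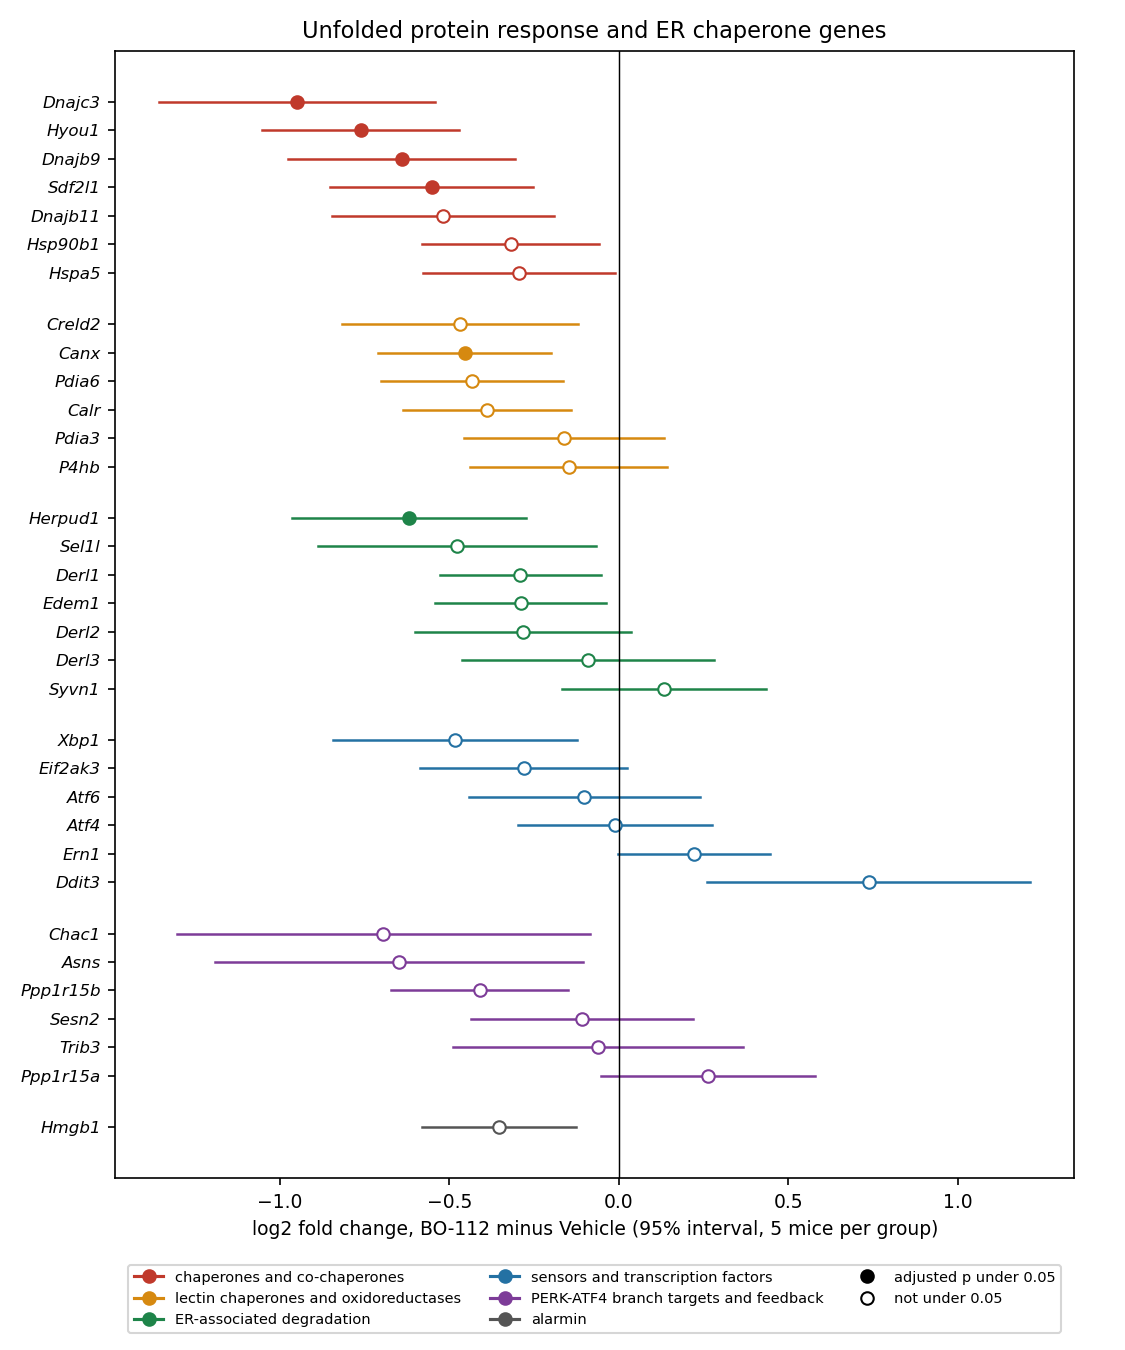
Log2 fold change of each of the 33 measured genes, BO-112 minus Vehicle, grouped by role, with the 95% interval from limma (5 mice per group). Filled points passed an adjusted p of 0.05. The 6 filled points are all below 0, 4 of them among the chaperones and co-chaperones, and Ddit3 lies farthest above 0.

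The count depended on single tumors and on the scaling of the arrays. It was 11 lower and 0 higher with each array centred on its median, and 4 lower and 1 higher, Ddit3, with quantile normalization of the deposited values instead. Over all probe sets the share called lower moved too, to 3.92% with median centring and 2.92% with quantile normalization, which called 591 of 21792 higher. Without BO-112 mouse 4 the count was 12 lower, the 6 and Asns, Calr, Chac1, Hmgb1, Ppp1r15b and Xbp1, and 8.65% of all probe sets were lower. It was 2 without BO-112 mouse 1, mouse 2 or mouse 5, 3 without BO-112 mouse 3 (with Dnajb11 as the third), 4 without Vehicle mouse 1, and 1 without Vehicle mouse 2, 3, 4 or 5. Without any 1 of those 4 Vehicle mice, between 0.619% and 0.734% of all probe sets were lower, and without any other mouse but BO-112 mouse 4 between 0.844% and 2.2%. Hyou1 was lower in each of these 10 fits. Dnajc3 lost its call without BO-112 mouse 1 and without Vehicle mouse 2, 3, 4 or 5. Dnajb9 kept it only without BO-112 mouse 1 or mouse 4, Sdf2l1 and Canx only without BO-112 mouse 4 or Vehicle mouse 1, and Herpud1 only without BO-112 mouse 4. With BO-112 mice 2 and 5 left out together 2 genes were lower, Dnajc3 and Hyou1, and Ddit3 was higher. Of all 21792 probe sets that fit called 332 (1.52%) lower and 489 higher. Once the array contrast entered the fit as a covariate, 0 of the 33 were lower or higher, and over all probe sets that fit called 0.0275% lower. In it 25 of the 33 log2 fold changes were negative with a median of -0.167, and the differences of Dnajc3 and Hyou1 were -0.65 and -0.53. Without BO-112 mice 2 and 5, 27 were negative with a median of -0.21. The median of the 7 chaperones and co-chaperones was -0.40 with the covariate and -0.48 without those mice. The largest adjusted p over all 20 alternative fits was 0.182 for Hyou1 and 0.288 for Dnajc3, and between 0.483 and 0.599 for the other 4 genes.

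**Figure D2:**
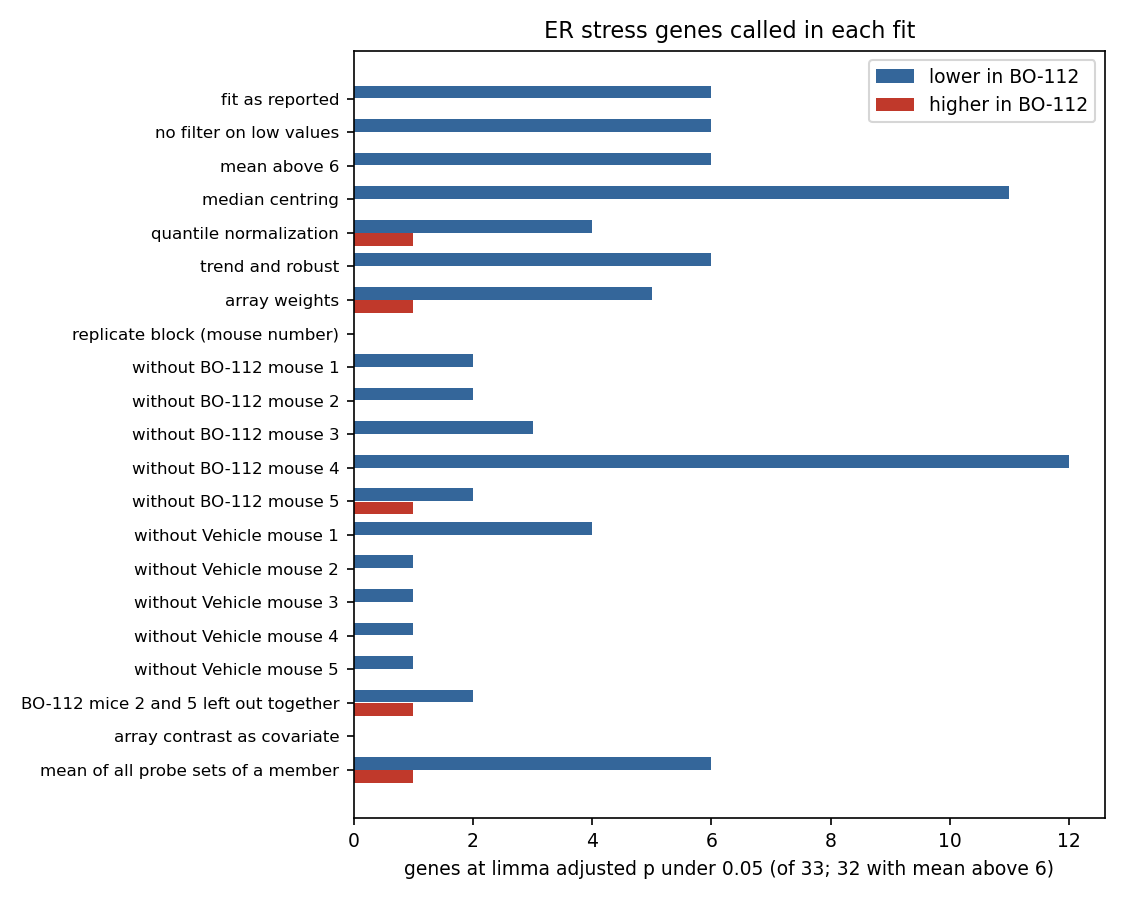
Number of the 33 genes (32 with a mean above 6) at a limma adjusted p under 0.05 in each fit, lower in BO-112 (blue) and higher in BO-112 (red). The lower calls run between 0 and 12, and the single higher call, where there is one, is Ddit3.

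The chaperones and co-chaperones had the lowest median of the role groups, -0.55, and 4 of the 7 measured fell. Dnajc3, the inhibitor of PERK and BiP co-chaperone known as p58IPK, stood at 8.91, 9.16, 9.61, 9.64 and 8.70 in BO-112 mice 1 to 5, against 9.88, 10.34, 10.29, 10.12 and 10.14 in Vehicle mice 1 to 5. Every BO-112 tumor lay below every Vehicle tumor, and the mean level was 51.8% of that in Vehicle tumors (log2 fold change -0.95, SE 0.19, limma adjusted p = 0.0193). Hyou1, an ER chaperone of the Hsp110 type that exchanges the nucleotide of BiP, measured 10.12, 9.94, 10.39, 10.21 and 9.77 in BO-112 mice, against 10.60, 11.02, 10.84, 10.81 and 10.97 in Vehicle mice. Again the groups did not overlap, and the difference of -0.76 (SE 0.13, limma adjusted p = 0.0116) had the smallest p of the 33 genes.

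Dnajb9 (ERdj4), a co-chaperone that restrains IRE1, gave 8.36, 7.85, 8.12, 8.31 and 7.70 in BO-112 mice, against 8.66, 9.01, 8.80, 8.43 and 8.64 in Vehicle mice. The groups came within 0.071 of each other, between BO-112 mouse 1 and Vehicle mouse 4, without overlap (log2 fold change -0.64, SE 0.15, limma adjusted p = 0.0380). Sdf2l1, a partner of the co-chaperone ERdj3 in the BiP cycle, read 8.76, 8.66, 8.66, 8.74 and 8.40 in BO-112 mice, against 8.97, 9.59, 9.33, 9.13 and 8.96 in Vehicle mice. Here it was the Vehicle mice that spread more, with Vehicle mouse 2 highest, and the groups did not overlap (log2 fold change -0.55, SE 0.14, limma adjusted p = 0.0423).

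The other 3 genes of this group did not pass. Hspa5 (BiP) had 12.41, 12.17, 12.54, 12.51 and 11.98 in BO-112 mice, against 12.57, 12.79, 12.73, 12.54 and 12.46 in Vehicle mice. BO-112 mice 3 and 4 lay inside the Vehicle range, and the log2 fold change of -0.30 (95% interval -0.58 to -0.01) did not pass (limma adjusted p = 0.184). Hsp90b1, the ER member of the Hsp90 family (GRP94), gave -0.32 (95% interval -0.58 to -0.06, limma adjusted p = 0.128), and Dnajb11, which encodes ERdj3, one of -0.52 (95% interval -0.85 to -0.19, limma adjusted p = 0.0666). BO-112 mouse 3 was the only BO-112 tumor whose Dnajb11 value (8.59) exceeded the lowest Vehicle value (8.43).

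**Figure D3:**
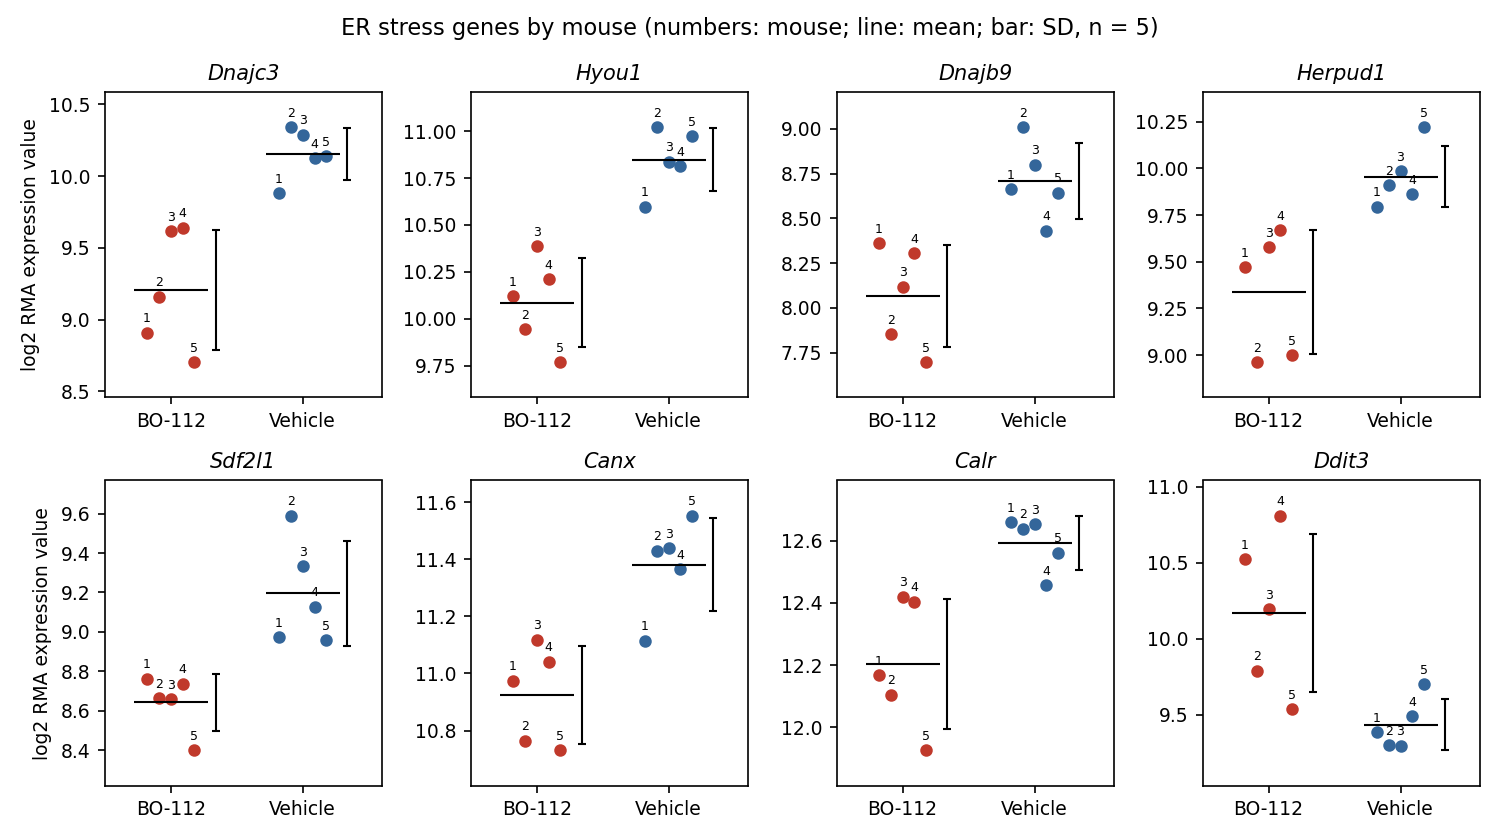
Log2 RMA value of 8 genes in each tumor, BO-112 (red) left of Vehicle (blue), with the mouse number above each point, the mean as a line and the SD as a bar (n = 5). Dnajc3, Hyou1, Dnajb9, Herpud1, Sdf2l1 and Calr have no overlap, Canx overlaps by 0.003, and Ddit3 runs the other way with BO-112 mouse 5 inside the Vehicle range.

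Of the lectin chaperones and oxidoreductases, 1 of 6 fell, Canx, and all 6 had a negative log2 fold change (median -0.41). Canx encodes calnexin, the membrane lectin that holds newly glycosylated proteins and heavy chains of MHC class I. It measured 10.97, 10.76, 11.12, 11.04 and 10.73 in BO-112 mice, against 11.12, 11.43, 11.44, 11.37 and 11.55 in Vehicle mice. BO-112 mouse 3 exceeded Vehicle mouse 1 by 0.003, and all other BO-112 tumors lay below all Vehicle tumors (log2 fold change -0.46, SE 0.12, limma adjusted p = 0.0470).

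Calr, the gene of calreticulin, the soluble lectin of the ER and of the class I peptide-loading complex, stood at 12.17, 12.10, 12.42, 12.40 and 11.93 in BO-112 mice, against 12.66, 12.64, 12.65, 12.46 and 12.56 in Vehicle mice. The groups were separate by 0.037, and the log2 fold change was -0.39 (95% interval -0.64 to -0.14, limma adjusted p = 0.0679). Pdia6, a disulfide isomerase that also acts on IRE1, gave 10.59, 10.20, 10.73, 10.54 and 10.63 in BO-112 mice, against 10.87, 11.19, 11.03, 10.77 and 10.99 in Vehicle mice. These groups did not overlap either (log2 fold change -0.43, limma adjusted p = 0.0629). Creld2, an ER stress-induced isomerase-like protein, had -0.47 (limma adjusted p = 0.100). Pdia3 (ERp57), which works beside calreticulin in peptide loading, and P4hb, the founding protein disulfide isomerase, had the smallest differences of the group, -0.16 (95% interval -0.46 to 0.13) and -0.15 (95% interval -0.44 to 0.14). In P4hb the highest of all 10 tumors was BO-112 mouse 1 at 11.53.

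ER-associated degradation returns misfolded proteins to the cytosol for the proteasome, and 1 of its 7 genes fell, with a median of -0.29. Herpud1, which organizes the degradation complex at the ER membrane, measured 9.47, 8.96, 9.58, 9.67 and 9.0004 in BO-112 mice, against 9.79, 9.91, 9.99, 9.86 and 10.22 in Vehicle mice. BO-112 mice 2 and 5 lay far below the other 3, and the groups did not overlap (log2 fold change -0.62, SE 0.16, limma adjusted p = 0.0466). Derl1, a channel-forming derlin, stood at 9.67, 9.54, 9.72, 9.70 and 9.24 in BO-112 mice, against 9.85, 9.87, 9.92, 9.79 and 9.90 in Vehicle mice. Its Vehicle values were the closest together of the genes whose groups did not overlap (SD 0.052), and the difference of -0.29 did not pass (limma adjusted p = 0.128).

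Edem1, which draws mannose-trimmed glycoproteins into degradation, gave 9.38, 9.32, 9.66, 9.62 and 9.37 in BO-112 mice, against 9.66, 10.06, 9.69, 9.71 and 9.67 in Vehicle mice. BO-112 mouse 3 came within 0.001 of Vehicle mouse 1, and Vehicle mouse 2 stood apart above the rest (log2 fold change -0.29, limma adjusted p = 0.148). Sel1l, the adaptor of the ubiquitin ligase HRD1, had -0.48 (95% interval -0.89 to -0.07, limma adjusted p = 0.143), Derl2 -0.28 (limma adjusted p = 0.252) and Derl3 -0.09 (limma adjusted p = 0.768). Syvn1, the gene of HRD1 itself, was the only one of the 7 with a positive estimate, 0.13 (95% interval -0.17 to 0.43, limma adjusted p = 0.578). An ERSE stands in its promoter window and in that of Derl3.

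None of the 6 sensors and transcription factors passed the test with the probe set used here (limma, 1 at an unadjusted p under 0.05 in each direction), and their median was -0.06. Xbp1, the target of IRE1, read 10.22, 9.75, 10.12, 10.26 and 9.44 in BO-112 mice, against 10.37, 10.73, 10.41, 10.43 and 10.28 in Vehicle mice. The groups were separate by 0.022, BO-112 mice 2 and 5 were lowest, and the log2 fold change was -0.48 (95% interval -0.85 to -0.12, limma adjusted p = 0.101). The sensors themselves gave 0.22 (95% interval -0.00172 to 0.45) for Ern1, -0.28 (95% interval -0.59 to 0.02) for Eif2ak3 and -0.10 (95% interval -0.44 to 0.24) for Atf6. Atf4 had the smallest difference of the 33 genes, -0.01 (95% interval -0.30 to 0.28), with 10.77 to 11.26 in BO-112 and 10.84 to 11.32 in Vehicle tumors. ATF4 is controlled mainly at translation, which the arrays did not measure.

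Ddit3, the gene of the stress factor CHOP, had the largest of the 4 positive log2 fold changes among the 33 genes, the others being those of Ppp1r15a, Ern1 and Syvn1. Its brighter probe set gave 10.52, 9.79, 10.19, 10.81 and 9.54 in BO-112 mice, against 9.38, 9.30, 9.30, 9.49 and 9.70 in Vehicle mice. BO-112 mice 1 to 4 lay above every Vehicle tumor and BO-112 mouse 5 lay below Vehicle mouse 5, and the log2 fold change of 0.74 (SE 0.22, 95% interval 0.26 to 1.21) did not pass (limma adjusted p = 0.0710). The annotation names Ddit3 for a second probe set, which the array design lists as unmapped. That one read 9.27, 8.69, 9.27, 9.52 and 8.92 in BO-112 mice, against 8.41, 8.51, 8.32, 8.41 and 8.66 in Vehicle mice. All 5 BO-112 values exceeded all Vehicle values, and it rose by 0.67 (SE 0.15, limma adjusted p = 0.0318). The difference of the brighter probe set was 1.08 without BO-112 mice 2 and 5 (limma adjusted p = 0.00737), and 0.90 without BO-112 mouse 5 alone (limma adjusted p = 0.0258). Those mice had its lowest BO-112 values. With 1 mouse left out the difference ran between 0.58 and 0.90, and it passed in 1 of the 10 fits. It passed in 5 of all 20 alternative fits, and the largest limma adjusted p over them was 0.159.

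The targets and feedback genes of the PERK and ATF4 branch included 0 of 6 at an adjusted p under 0.05 (limma, 3 lower and 0 higher at an unadjusted p under 0.05), with a median of -0.26. Ppp1r15b, the constitutive subunit that directs a phosphatase to eIF2 alpha, stood at 9.20, 9.09, 9.49, 9.50 and 9.11 in BO-112 mice, against 9.67, 9.91, 9.55, 9.67 and 9.64 in Vehicle mice. The groups did not overlap, and the log2 fold change was -0.41 (95% interval -0.67 to -0.15, limma adjusted p = 0.0667). Ppp1r15a (GADD34), the stress-induced subunit of the same phosphatase, had 0.26 (limma adjusted p = 0.279) and exceeded the negative control level on 1 BO-112 and 0 Vehicle arrays.

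Asns and Chac1, which carry a CARE, differed mainly in some tumors. Asns measured 10.28, 10.05, 10.41, 10.95 and 9.24 in BO-112 mice, against 10.73, 10.94, 10.86, 10.74 and 10.89 in Vehicle mice. BO-112 mouse 4 was the highest of all 10 tumors and BO-112 mouse 5 the lowest, so the SD was 0.62 in BO-112 and 0.093 in Vehicle tumors (log2 fold change -0.65, 95% interval -1.19 to -0.10, limma adjusted p = 0.136). Chac1 gave 6.62, 5.88, 7.10, 7.31 and 5.78 in BO-112 mice, against 7.04, 7.40, 7.12, 7.19 and 7.42 in Vehicle mice. BO-112 mice 2 and 5 were again lowest, Chac1 exceeded the negative control level on 3 of the 5 BO-112 arrays, and the log2 fold change was -0.70 (95% interval -1.30 to -0.09, limma adjusted p = 0.151). Trib3, a pseudokinase that feeds back on ATF4 and CHOP, had -0.06 (95% interval -0.49 to 0.37), and Sesn2, a stress-induced inhibitor of mTORC1, -0.11 (95% interval -0.44 to 0.22). Sesn2 was dim, with means of 6.35 in BO-112 and 6.46 in Vehicle tumors, and exceeded the negative control level on 5 BO-112 and 4 Vehicle arrays.

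Hmgb1, a nuclear protein that acts as an alarmin once it leaves dying cells, measured 11.58, 11.54, 11.67, 11.75 and 11.57 in BO-112 mice, against 12.01, 11.95, 12.16, 11.70 and 12.05 in Vehicle mice. BO-112 mouse 4 alone exceeded a Vehicle tumor, mouse 4, and the log2 fold change was -0.35 (95% interval -0.58 to -0.13, limma adjusted p = 0.0696). Its SD was 0.084 in BO-112 and 0.17 in Vehicle tumors.

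The tumors differed in how far these genes lay below the Vehicle mean. The mean deviation of all 33 was -0.23, -0.48, -0.15, -0.08 and -0.56 in BO-112 mice 1 to 5, and between -0.10 and 0.13 in the Vehicle mice. BO-112 mice 2 and 5, whose arrays had the lowest contrast, were lowest, and 17 of the 33 genes had their lowest value of all 10 arrays in mouse 5 and 9 in mouse 2. The arrays of BO-112 mice 2 and 5 had the narrowest interquartile ranges, 2.80 and 2.85, against 3.13 to 3.42 on the others. The count of lowest values was not made over all probe sets. Mouse 5 also had the lowest melanocyte marker mean (10.72) and the highest skeletal muscle marker mean (10.72, against 6.12 to 8.996 in the Vehicle mice). The T cell marker mean was 6.37 to 8.61 in the BO-112 mice, highest in mouse 5, against 5.42 to 6.21 in the Vehicle mice, and 3 of 8 of these markers rose. Of 9 neutrophil markers 1 rose (Lcn2, by 2.69) and 7 were higher at an unadjusted p under 0.05, with a mean of 5.42 to 7.15 in the BO-112 and 5.10 to 5.77 in the Vehicle mice. Of 9 macrophage and monocyte markers 1 rose (Ly6c2, by 3.57) and 1 fell (Mrc1, -2.79), with a mean of 7.28 to 9.04 in the BO-112 and 6.34 to 8.44 in the Vehicle mice. In mouse 2 the epidermis markers averaged 8.82, against 5.48 to 7.91 in the Vehicle mice. The part of the array contrast in the differences was not tested beyond the fits given above, and the part of the cell content was not tested.

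Of the chaperones and co-chaperones alone, the mean deviation was -0.57, -0.70, -0.36, -0.41 and -0.86 in BO-112 mice 1 to 5, against -0.19 to 0.19 in the Vehicle mice. In BO-112 mouse 4, named after its values were seen, the melanocyte marker mean (12.05) and the array contrast (0.883) lay inside the Vehicle range. The mean deviation of its chaperones lay below the Vehicle range, and its Hspa5 value (12.51) lay inside that of the Vehicle mice (12.46 to 12.79). What part cell content or array contrast had in this tumor was not tested. The sensors and transcription factors deviated by 0.13, -0.19, 0.06, 0.27 and -0.21 in BO-112 mice, against -0.14 to 0.13 in the Vehicle mice. The number of genes below every Vehicle tumor was 21, 25, 17, 18 and 24 in BO-112 mice 1 to 5, and the number above every Vehicle tumor was 4, 2, 3, 6 and 1. These counts were not made over all probe sets, so whether they are particular to these genes was not tested. The BO-112 values spread more than the Vehicle values in 27 of the 33 genes (81.8%), against 76.1% of all probe sets.

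**Figure D4:**
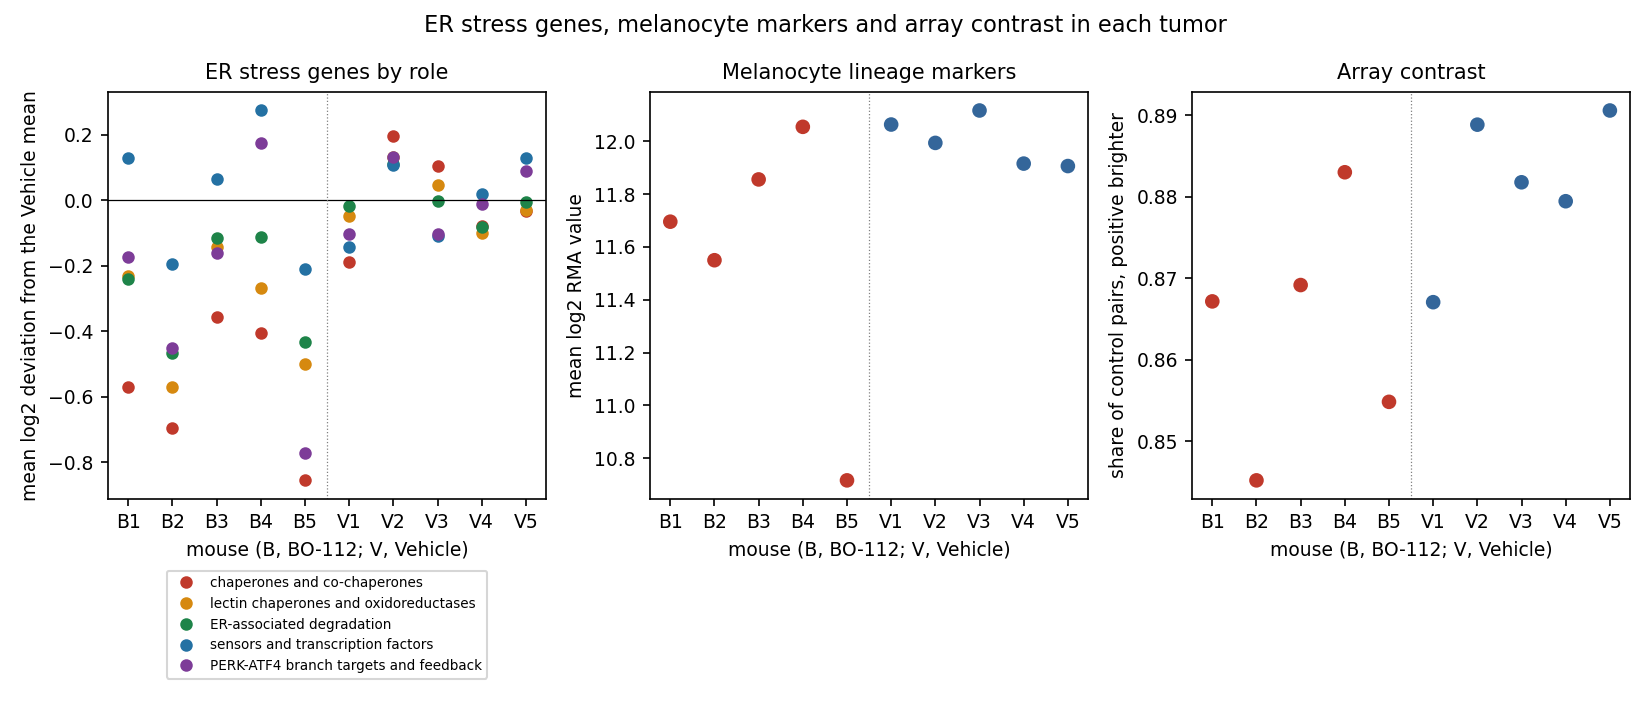
Mean log2 deviation from the Vehicle mean for each role group (left), mean log2 value of the 10 melanocyte markers (middle) and array contrast (right) in each tumor, BO-112 mice (B1 to B5) left of Vehicle mice (V1 to V5). The chaperones of all 5 BO-112 tumors lie below those of all Vehicle tumors, and B2 and B5 have the lowest array contrast.

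Further genes of the same pathways, 153 in lists by role of which 144 were tested, included 14 that were lower and 5 that were higher in BO-112 tumors, with a median of -0.21. Over all probe sets 2.79% were lower and 2.43% higher, with a median of 0.01. Among probe sets with a mean above 6, where most of these genes lie, 6.49% were lower and 4.61% higher, with a median of -0.10. These shares are the background of each list that follows. Of 21 genes of the translocon and signal peptidase, which bring new proteins into the ER and trim them, 4 fell and 0 rose (median -0.40). Spcs3, a signal peptidase subunit, stood at 8.66, 8.42, 9.01, 9.04 and 8.60 in BO-112 mice, against 9.47, 9.69, 9.63, 9.55 and 9.58 in Vehicle mice. The groups were separate by 0.426, a wider gap than in any of the 33 genes (log2 fold change -0.84, SE 0.13, limma adjusted p = 0.00785). The others were Sec61b (-0.51) and Sec61g (-0.51), subunits of the Sec61 channel, and Ssr1 (-0.40), a subunit of the translocon-associated complex.

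Of 16 genes of N-glycosylation and glycan trimming, 3 fell and 0 rose (median -0.28). They were Rpn1, a subunit of the oligosaccharyltransferase (-0.85), Uggt1, the glucosyltransferase that returns misfolded glycoproteins to calnexin and calreticulin (-0.72), and Mlec, a lectin of glucosylated glycans (-0.70). Of 29 other folding enzymes and chaperones, 3 fell and 0 rose (median -0.22), namely Serp1, a stress-associated translocon protein (-0.70, SE 0.11), the thioredoxin-domain protein gene Txndc5 (-0.61) and Hspa13 (-0.56). Of 22 other genes of ER-associated degradation, 1 fell and 0 rose (median -0.18), Selenos, a selenoprotein that binds derlins (-0.69). Over all probe sets 2.79% were lower, and 6.49% of those with a mean above 6. Spcs3, Serp1 and Txndc5 were lower in all 10 fits with 1 mouse left out. The count of 14 ran between 3 and 36 over those fits. It was 3 without BO-112 mouse 1 or 2 or Vehicle mouse 2, 3 or 5, 4 without Vehicle mouse 4, 9 without Vehicle mouse 1 and 36 without BO-112 mouse 4, the fit in which 8.65% of all probe sets were lower. The count of 5 higher was 3 without BO-112 mouse 1 or Vehicle mouse 2 and 2 without Vehicle mouse 3, 4 or 5. Rpn1, Mlec and Hspa13 were lower in 4 of these 10 fits, Ssr1 in 3, and Sec61b, Sec61g, Uggt1 and Selenos in 2.

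Other sensors and eIF2 alpha kinases included 0 of 18 past the test (limma, 1 higher and 3 lower at an unadjusted p under 0.05, median -0.02). Of these, Creb3l2, an ER-anchored transcription factor, had -0.68 (limma adjusted p = 0.0536) and Eif2ak2, the interferon-induced kinase PKR, 0.72 (limma adjusted p = 0.0706). Eif2ak2 lay between 9.44 and 10.04 in BO-112 tumors and between 8.54 and 9.68 in Vehicle tumors. BO-112 mouse 2 lay below Vehicle mouse 1, so the groups overlapped.

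Among 28 other targets of ATF4, 4 rose and 2 fell, with a median of -0.18. Nupr1, a stress-induced chromatin protein, stood at 9.69, 9.50, 9.66, 9.42 and 10.63 in BO-112 mice, against 8.24, 8.49, 8.01, 8.55 and 8.86 in Vehicle mice. The groups did not overlap, with BO-112 mouse 5 highest (log2 fold change 1.35, SE 0.23, limma adjusted p = 0.0112). Slc7a11, the cystine transporter, rose by 0.92 (SE 0.19). Outside the 4 of largest change, and named after their values were seen, Atf3, a stress transcription factor, rose by 0.85 and Gadd45a, a growth arrest gene, by 0.66. The 2 that fell encode enzymes of serine synthesis, Phgdh (-1.09, SE 0.24) and Psat1 (-1.03, SE 0.25). Of the 10 fits with 1 mouse left out, Nupr1 and Gadd45a were higher in all 10, Slc7a11 in 6 and Atf3 in 2, and Phgdh was lower in 4 and Psat1 in 3. Phgdh and Psat1 were lowest in BO-112 mouse 5, 7.44 for Phgdh and 8.05 for Psat1, against 9.18 to 9.67 and 9.52 to 10.10 in Vehicle mice.

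Of 10 other genes tied to immunogenic cell death, 1 rose and 1 fell, with a median of 0.17. Cd47, which sends phagocytes a signal not to engulf, rose by 1.04 (SE 0.21, limma adjusted p = 0.0193) without overlap, 10.37 to 11.36 in BO-112 and 9.23 to 10.10 in Vehicle tumors. Hmgb2, a relative of Hmgb1 that is high in dividing cells, fell by 1.02 (SE 0.26, limma adjusted p = 0.0467), with 7.72 to 9.26 in BO-112 and 9.14 to 9.90 in Vehicle tumors. With 1 mouse left out, Cd47 was higher in 6 of 10 fits and Hmgb2 lower in 2.

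The genes with an ERSE or ERSE-II in the promoter window were Calr, Canx, Creld2, Derl3, Dnajb11, Dnajc3, Herpud1, Hsp90b1, Hspa5, Pdia6 and Syvn1. Of these 11, 3 fell (Canx, Dnajc3 and Herpud1) and 0 rose, 10 had a negative log2 fold change, and the median was -0.43. Among the 18 measured genes with a promoter window and no such element, 2 fell (Dnajb9 and Sdf2l1), 15 were negative, and the median was -0.28. Over all tested probe sets 2.79% were lower and 47.7% negative, and among those with a mean above 6 these shares were 6.49% and 61.3%. Outside the 33 genes, 26 tested genes held an ERSE or ERSE-II, and of these 0 fell and 1 rose, Krtcap2 (0.81), a subunit of the oligosaccharyltransferase, named after its value was seen, with a median of -0.00391. Only 14 of the 26 exceeded the negative control level on all 10 arrays, and the median of those was -0.07. Alg12, a mannosyltransferase gene that starts beside Creld2 and runs the other way, shares the element of Creld2 in its own window and had a log2 fold change of -0.02. These sets were not tested against each other.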

How the data were processed

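Total RNA of 10 whole B16OVA tumors, 5 BO-112 and 5 Vehicle, was measured on Clariom S Mouse arrays. The deposited values are log2 expression values that the authors made with Robust Multichip Average (RMA), which removes most shifts shared by all transcripts and draws dim probe sets toward a floor. The RMA version and the build of the probe sets are not given in the sources used here. Each title gives the group and the number of a mouse, and the mice are separate. Of 29129 probe sets, 6923 controls were set aside, and those with a value above 4 on 3 or more arrays of BO-112 or of Vehicle were kept (21792, with 414 removed).

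Probe sets were fitted with limma 3.58.1 (R 4.3.3), with lmFit and then eBayes at a prior proportion of 0.01 and no covariate. Tests were two-sided, at a Benjamini-Hochberg adjusted p of 0.05 or at a B-statistic of 0. A gene was represented by its probe set of highest mean. No list was tested as a set. The genes and lists were chosen for the known roles of the genes, with earlier results of these data known. Every value is given for genes at an adjusted p under 0.05 and for those without overlap between groups, and of each further list the genes at an adjusted p under 0.05, up to 4 of largest change, or the 2 of lowest p. The fit was repeated with no filter or a mean above 6, with median centring or quantile normalization, with eBayes using a trend and robust estimates, with array weights, with mouse numbers as a block, with each mouse left out, without BO-112 mice 2 and 5, with array contrast as covariate, and on the mean of all probe sets of a gene. The array contrast used 1324 positive and 5222 negative control probe sets. Precision is limited by the 10 arrays, which count no molecules. Protein sequence features were not analysed here.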

Additional observations from a re-analysis of the deposited data

Results flagged for a closer look

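Of 108 sets of 5 tumors checked for a value far from the others (the highest or lowest value's gap to the nearest, over the whole range), 7 were marked, and chance alone marks about 5% of sets. In BO-112 mouse 5, Sdf2l1 was 8.40, against 8.66 to 8.76 in the other BO-112 mice, and Eif2ak3 was 8.67, against 9.23 to 9.34. In the same mouse Atf3 was 9.51, against 8.40 to 8.71, and Nupr1 was 10.63, against 9.42 to 9.69. Serp1 was 10.04 in BO-112 mouse 4 and 9.53 to 9.67 in the other BO-112 mice. Among Vehicle tumors, Edem1 was 10.06 in mouse 2, against 9.66 to 9.71 in the others, and Txndc5 was 9.75 in mouse 4, against 9.90 to 9.93.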

How the results depend on the processing

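Of the 33 genes, 6 were lower and 0 higher, and of the further pathway genes 14 were lower and 5 higher. With 1 mouse left out the counts ran between 1 and 12 lower and between 0 and 1 higher of the 33, and between 3 and 36 lower and 2 and 6 higher of the pathway genes, while at a B-statistic above 0 (2 lower, 0 higher) they ran between 1 and 2 lower and 0 and 1 higher. Median centring gave 11 lower. The count higher was 1 (Ddit3) with quantile normalization, with array weights and with the mean of all probe sets. Over all 21792 probe sets (21791 in the last), those fits called 591, 860 and 529 higher. Array weights also gave 1 of the 33 higher at a B-statistic above 0. Without BO-112 mice 2 and 5, 2 were lower and 1 higher (1 and 1 at a B-statistic above 0), with 5 pathway genes lower. With the array contrast as a covariate, 0 were lower (0 lower and 1 higher at a B-statistic above 0) and 0 pathway genes were lower or higher.

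The main fit took no pairing by mouse number. Tumors of the same number deviated from their group means with correlations between -0.31 and 0.39. For number 3 (0.39) this exceeded the highest correlation of that BO-112 mouse with another number (0.193), and for the other numbers it did not. These values cannot exclude a pairing. With the mouse number as a replicate block, 0 of the 33 were lower, 1 at a B-statistic above 0, and 0 pathway genes were lower and 1 higher, while over all probe sets the block left 27 lower and 75 higher.

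No called value changed direction. The uncalled Atf6 (-0.10) gave 0.00907 with quantile normalization and 0.14 with the contrast covariate, Atf4 (-0.01) gave 0.0971 with the first, 0.191 with the second and, without BO-112 mice 2 and 5, 0.0177, Trib3 (-0.06) gave 0.0461 with array weights, 0.13 without those mice and 0.11 with the covariate, and Sesn2 (-0.11) gave 0.17 with the covariate. With 1 mouse left out Atf6 ran between -0.19 and 0.0112, Atf4 between -0.0687 and 0.0581 and Trib3 between -0.17 and 0.12. The cause of these changes was not tested. Fits without the filter, with a mean above 6 and with a variance trend called the same 6 genes lower. Ppp1r15a lay near the negative control level, so its difference is uncertain.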
